A study of Mus musculus with 16 samples.

Results

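The BMP and TGF-beta pathway genes described here were 34 genes taken by name and matched by Ensembl identifier to 34 of the 54838 identifiers in the count tables. The rule that selected them used no measured value, but they were chosen with earlier results of these data known. They comprise 13 ligands (Tgfb1, Tgfb2, Tgfb3, Bmp2, Bmp4, Bmp5, Bmp6, Bmp7, Gdf6, Gdf10, Gdf11, Inhba and Inhbb), 9 receptors (Bmpr1a, Bmpr1b, Bmpr2, Acvr1, Acvr2a, Acvr2b, Tgfbr1, Tgfbr2 and Tgfbr3), the signal transducer Smad9, 4 secreted antagonists (Nog, Chrd, Fst and Grem1) and 7 targets (Smad6, Smad7, Id1, Id2, Id3, Id4 and Bambi). RNA had been sequenced from mouse embryos at E10.5, in mid-gestation, from the Head (the part above the third branchial arches) and the Tail (the part caudal to the forelimbs). Each region was taken from Fuz;Gpr161 double knockout embryos (DKO), Gpr161 KO embryos, Fuz KO embryos and wild type embryos (WT), untreated, with 2 libraries in each of the 8 groups. The sources used here give no strain, no kind of allele and no word on pooling of embryos. All 34 members passed the filter on low counts.

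Ligands of this family are secreted dimers that bring together type I and type II serine/threonine kinase receptors. BMP receptors then phosphorylate the transcription factors Smad1, Smad5 and Smad9, and TGF-beta and activin receptors phosphorylate Smad2 and Smad3. Extracellular antagonists such as noggin and follistatin bind ligands before they reach a receptor, and Smad6, Smad7 and Bambi, which are themselves induced by the signal, damp it inside or at the surface of the cell. In the embryo BMPs from the roof plate and surface ectoderm pattern the dorsal neural tube against Sonic hedgehog from the floor plate. Fuz, a planar cell polarity effector, is needed to build primary cilia, and Gpr161 encodes a ciliary receptor that holds back Hedgehog signalling. The comparisons ask how loss of each gene, or of both, changes expression in each region.

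Total counts per library ran from 39062489 to 53680317, and levels are given as CPM, the counts scaled by each library's total after TMM adjustment. Gpr161 stood at 3.49 and 5.44 CPM in Head DKO and at 4.21 and 4.31 CPM in Head Gpr161 KO, against 55.0 and 54.0 CPM in Head WT. Fuz stood at 1.22 and 1.89 CPM in Head DKO and at 0.909 and 1.66 CPM in Head Fuz KO, against 6.82 and 7.84 CPM in Head WT. The Tail markers Hoxa10, Hoxc10 and Hoxd11 were at most 0.235 CPM in any Head library. A list of 20 cardiomyocyte genes summed to 2805 and 593 CPM in the Head Gpr161 KO libraries, with 0 of 20 at 0, against 12.1 to 45.9 CPM in the other Head libraries, with up to 4 of 20 at 0, and 36.0 to 189 CPM in the Tail. All DKO and Fuz KO libraries carried Y-linked transcripts, all WT libraries were Xist-positive, and Gpr161 KO library 1 was male and library 2 female in both regions. Sex and genotype therefore cannot be told apart in DKO or Fuz KO against WT. A sex term in the fit rests on library 1 against library 2 of Gpr161 KO, the only genotype with both sexes. In the Head, library 1 of that genotype had 4.73 times the cardiomyocyte sum of library 2, so the term does not adjust for sex alone. A list of 25 hypoxia and glycolysis genes summed 2.85 times higher in library 1 than in library 2 of Head Fuz KO and 2.41 times higher in that of Tail Fuz KO, 1.61 and 1.53 times in Head and Tail DKO and 1.36 and 1.39 times in Head and Tail Gpr161 KO, against 0.997 and 0.953 times in Head and Tail WT. The median log2 difference of that list from WT was positive in every mutant group, from 0.69 in Tail Gpr161 KO to 1.80 in Head Fuz KO, with 0 of 25 genes called.

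The 34 genes covered a wide range of levels, compared here per kilobase of merged exon (RPKM, mean ± SD of 2 libraries). Among receptors, a pair of type I receptors was highest. Tgfbr1, the type I receptor for TGF-beta, stood at 39.5 ± 1.38 RPKM in Head WT, and Bmpr1a, a type I receptor for BMPs, at 31.6 ± 1.78 RPKM. Among ligands the highest were Bmp7 at 13.3 ± 1.47 RPKM, Gdf11 at 13.2 ± 0.408 RPKM and Bmp4 at 10.1 ± 0.422 RPKM in Head WT. Bmp7 and Gdf11 did not differ beyond their spread. The activin subunit genes Inhba and Inhbb were the lowest members, at 0.0907 ± 0.0587 and 0.178 ± 0.00194 RPKM in Head WT. Id3, which encodes an inhibitor of basic helix-loop-helix factors and is induced by BMP, was the highest member at 104 ± 1.11 RPKM. Nog was the highest antagonist in Head WT at 4.47 ± 0.277 RPKM, and Grem1 the highest in Tail WT at 5.12 ± 0.611 RPKM.

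**Figure D1:**
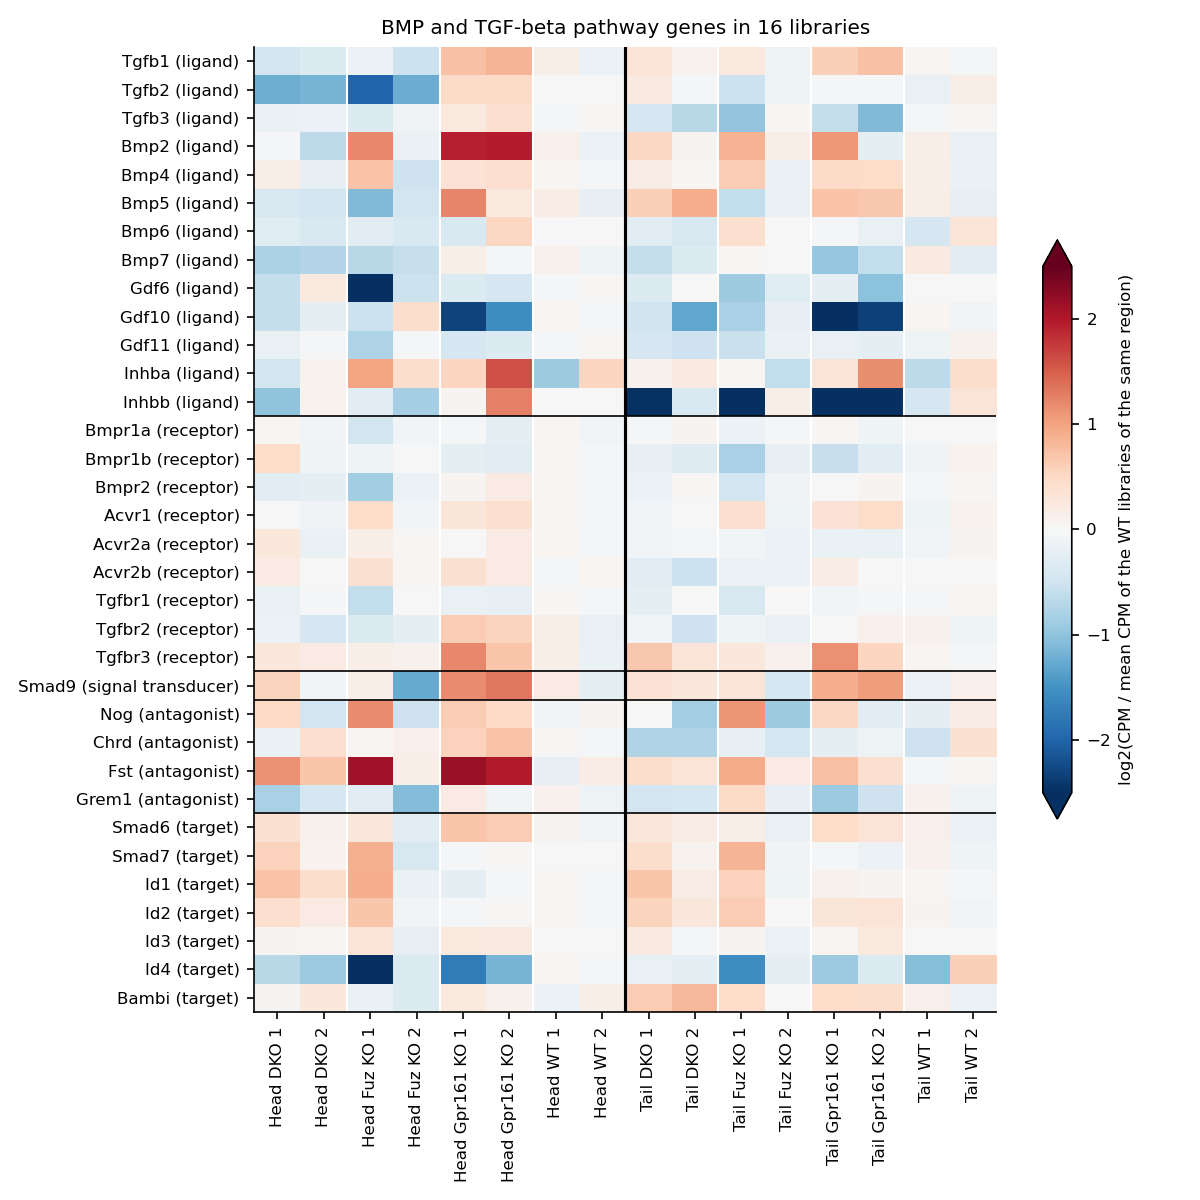
Level of each of the 34 pathway genes (rows, grouped by role) in each of the 16 libraries (columns, by region and genotype), as log2 of the CPM over the mean CPM of the 2 WT libraries of the same region. Red is higher and blue lower than WT. Gdf10 is blue in all 4 Gpr161 KO libraries, Tgfb2 is blue in the DKO and Fuz KO Heads, and Fuz KO library 1 stands apart from library 2 for many rows.

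Of the 13 called differences, 6 lay between the Head DKO and the Head Gpr161 KO, the comparison with the most, and all 6 of these genes were lower in the DKO. They were Tgfb1, Tgfb2, Bmp2, Bmp5, Bmp7 and Tgfbr2. Over all 21284 genes tested, 4.16% were called in this comparison and 3.13% were lower. A gene was called at an adjusted p under 0.05 (edgeR's quasi-likelihood test, Benjamini-Hochberg over all genes tested). The median log2 difference of the 34 genes was -0.41, with 24 lower, beside 0.01 for all genes. Leaving out 1 library left 2 members called when that library was Head Gpr161 KO 1, 3 when it was Head Gpr161 KO 2, 1 when it was Head DKO 1 and 2 when it was Head DKO 2. No label states that replicate libraries come from separate embryos, so p-values measure the spread between these libraries.

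Against WT, Gdf10 and Tgfbr3 passed in the Head Gpr161 KO, Tgfb2 in the Head Fuz KO and Gdf10 again in the Tail Gpr161 KO. In Head Gpr161 KO against Head WT, 1 member was higher and 1 lower, where 2.02% of all genes were called, 1.51% higher and 0.507% lower. The median log2 difference of the 34 genes there was 0.27, with 24 higher, beside 0.01 for all genes. In Head Fuz KO against Head WT, 1 member was lower, where 0.047% of all genes were called and 0.0376% were lower. In Tail Gpr161 KO against Tail WT, 1 member was lower, where 0.305% of all genes were called and 0.226% were lower. The counts of members with 1 library left out, here and in the other comparisons, have no share of all genes beside them. They may change as the counts of all genes do. For Head Gpr161 KO the count was 0 without either Head WT library or without Head Gpr161 KO 1. It was 1 when the omitted library was Head Gpr161 KO 2, a Head DKO or a Tail WT library. It was 7 without a Head Fuz KO library. For Head Fuz KO it was 0 without Head WT 1, Head WT 2, Head Fuz KO 1 or a Tail Gpr161 KO library, and 8 without Head Fuz KO 2. For Tail Gpr161 KO it was 0 without a Tail WT or Tail Gpr161 KO library and 2 without a Tail Fuz KO library.

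The same test by edgeR called 0 members in Head DKO against Head WT, where 0.0329% of all genes were called, 2 members had an unadjusted p under 0.05 and DESeq2 called 2. It called 0 in Tail Fuz KO against Tail WT (0.0094% of all genes; 1 member under an unadjusted 0.05 and 0 by DESeq2) and 0 in Tail DKO against Tail WT (0.0423%; 8 members and 1 by DESeq2). Of all genes, 4.33%, 5.21% and 7.19% had an unadjusted p under 0.05 in these comparisons with WT, in that order. Between mutants, edgeR called 0 in Head DKO against Head Fuz KO (0.0282% of all genes; 1 member at an unadjusted 0.05, and 0 with DESeq2). The count was 0 for Tail DKO against Tail Fuz KO (0.0329%; 4 members and 0 by DESeq2) and 0 for Tail DKO against Tail Gpr161 KO (0.522%; 5 members and 2 by DESeq2). Of all genes, 2.89%, 3.69% and 12.2% had an unadjusted p under 0.05 in these comparisons between mutants, in that order. Leaving out Head Fuz KO 1 or Head Fuz KO 2 gave 1 member for Head DKO against Head WT and 1 for Tail DKO against Tail Gpr161 KO. Head Fuz KO 2 left out gave 3 for Head DKO against Head Fuz KO. A DKO that differs from Gpr161 KO in the Head and not in the Tail is not thereby shown to differ between regions. Fuz itself had log2 differences from WT of -2.23 in Head DKO, -2.30 in Tail Fuz KO and -2.16 in Tail DKO. By edgeR it was not called there (adjusted p = 0.0942, 0.241 and 0.13), so a count of 0 does not show a lack of change. The percentages of all genes are those of edgeR with all libraries, and none is given for DESeq2 or with a library left out.

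**Figure D2:**
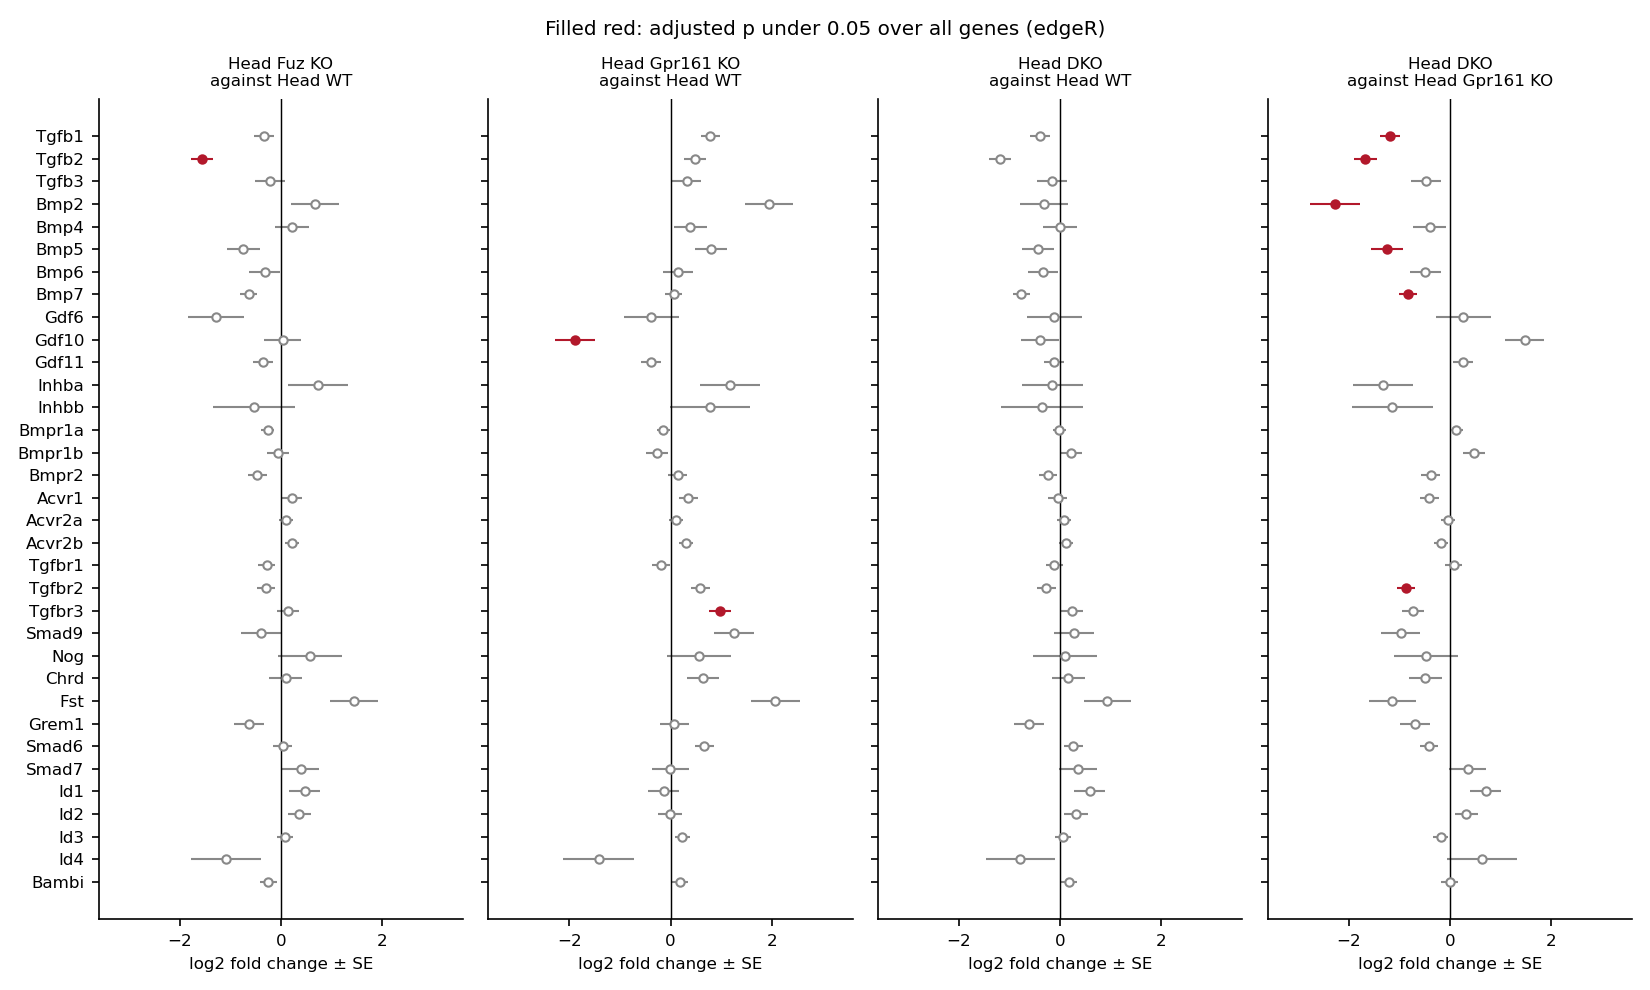
Log2 fold change (dot) and standard error (bar) of each of the 34 pathway genes in 4 Head comparisons, from the edgeR fit over all 16 libraries. Filled red dots passed an adjusted p of 0.05, which were 1, 2, 0 and 6 members from left to right, and all 6 in the right panel lie below 0.

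Promoters of 4 of the genes called between Head DKO and Head Gpr161 KO (without Bmp2 and Bmp7), and of Gdf10, are shown because these genes moved in the same comparison or in both regions. The RefSeq promoter table (build GRCm38.p6) matched 24 of the 34 members, and the 250 bases before each transcription start are given 5′ to 3′ on the gene's strand. They are Tgfb1 at chr7:25686752-25687001 (plus), Tgfb2 at chr1:186705990-186706239 (minus), Bmp5 at chr9:75775115-75775364 (plus), Tgfbr2 at chr9:116175364-116175613 (minus) and Gdf10 at chr14:33923337-33923586 (plus). Capitals mark CAGACA, a sequence bound by Smads, on either strand.
Tgfb1: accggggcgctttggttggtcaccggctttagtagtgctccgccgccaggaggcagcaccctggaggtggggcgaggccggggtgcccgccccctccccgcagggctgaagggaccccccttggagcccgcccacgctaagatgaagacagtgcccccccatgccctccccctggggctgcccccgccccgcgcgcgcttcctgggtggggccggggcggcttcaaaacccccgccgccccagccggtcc
Tgfb2: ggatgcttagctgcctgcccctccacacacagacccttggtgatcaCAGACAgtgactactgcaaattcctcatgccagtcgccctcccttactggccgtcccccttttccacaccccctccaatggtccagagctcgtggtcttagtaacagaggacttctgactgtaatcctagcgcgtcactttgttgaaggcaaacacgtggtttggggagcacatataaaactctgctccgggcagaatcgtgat
Bmp5: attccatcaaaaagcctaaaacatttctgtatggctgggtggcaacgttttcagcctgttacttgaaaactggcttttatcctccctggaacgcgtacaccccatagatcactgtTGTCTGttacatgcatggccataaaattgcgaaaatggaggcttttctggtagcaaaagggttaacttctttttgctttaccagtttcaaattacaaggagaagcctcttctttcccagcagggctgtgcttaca
Tgfbr2: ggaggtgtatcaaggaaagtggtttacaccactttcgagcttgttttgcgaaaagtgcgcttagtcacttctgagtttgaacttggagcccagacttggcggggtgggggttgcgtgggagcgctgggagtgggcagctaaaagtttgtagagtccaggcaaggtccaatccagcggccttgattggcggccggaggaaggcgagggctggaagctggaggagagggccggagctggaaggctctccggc
Gdf10: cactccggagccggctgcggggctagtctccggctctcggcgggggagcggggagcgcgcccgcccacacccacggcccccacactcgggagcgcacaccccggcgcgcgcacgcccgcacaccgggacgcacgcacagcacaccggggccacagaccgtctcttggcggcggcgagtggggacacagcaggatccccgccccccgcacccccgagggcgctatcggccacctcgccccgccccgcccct
CAGACA was found in 4 of 27 member promoters (some genes have several starts) and in 17.1% of all 32851 promoters of this length. The GC-rich Smad motif GGCGCC was found in 8 of 27 member promoters and in 9.59% of all. Those 8 were 62.8% to 78.8% GC. The GC content of all promoters is not given here, so the 2 shares are not matched for it. GACCACCC, the core of the motif of the Hedgehog effectors Gli1 to Gli3, was found in 0 of 27 and in 0.703% of all. Both strands were searched, and these are counts of letters in the window. Among the 5 sequences, GC content ran from 42.8% for Bmp5 to 78.8% for Gdf10.

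Tgfb2, a TGF-beta ligand required for heart, craniofacial and inner ear development, was called lower in both genotypes without Fuz, in different comparisons. It stood at 10.7 and 11.1 CPM in Head DKO and at 6.31 and 10.54 CPM in Head Fuz KO, against 34.8 and 34.6 CPM in Head Gpr161 KO and 25.1 and 24.6 CPM in Head WT. Both genotypes without Fuz lay below both genotypes with it, with no overlap. The log2 difference was -1.67 ± 0.22 (SE) for Head DKO against Head Gpr161 KO (adjusted p = 0.00128), and it passed under all 24 other settings. It was -1.56 ± 0.22 for Head Fuz KO against Head WT (adjusted p = 0.0278), with an adjusted p of 0.573 with sex as a term and 0.215 with the Head fitted alone. That call was lost without Head WT 1 (0.27), Head WT 2 (0.227), Head Fuz KO 1 (0.181), Tail Gpr161 KO 1 (0.0618) or Tail Gpr161 KO 2 (0.0621). Head DKO against Head WT gave -1.19 ± 0.22 (adjusted p = 0.143). Tail libraries held 39.9 and 33.5 CPM in DKO, 33.6 and 33.2 CPM in Gpr161 KO, 23.6 and 31.9 CPM in Fuz KO and 30.2 and 38.4 CPM in WT. There the DKO and Gpr161 KO lay just above the Fuz KO, and the WT libraries overlapped every mutant group.

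Tgfb1, which encodes the ligand that gives the family its name, had 10.48 and 11.4 CPM in Head DKO, against 23.8 and 26.0 CPM in Head Gpr161 KO. The Head Fuz KO held 13.1 and 9.87 CPM and the Head WT 15.9 and 13.0 CPM, so the Head Gpr161 KO stood above every other Head library. Head DKO against Head Gpr161 KO differed by -1.18 ± 0.20 on the log2 scale (adjusted p = 0.00532), and only leaving out Head DKO 1 ended that call (0.07). Head Gpr161 KO against Head WT gave 0.79 ± 0.19 and did not pass (adjusted p = 0.0595). In the Tail, Tgfb1 had 18.5 and 15.3 CPM in DKO, 21.9 and 24.2 CPM in Gpr161 KO, 17.3 and 13.4 CPM in Fuz KO and 15.0 and 14.0 CPM in WT. The Gpr161 KO again lay above the rest, with 0.67 ± 0.19 against WT (adjusted p = 0.289). The third isoform, Tgfb3, ran from 4.54 to 9.88 CPM over the 16 libraries and gave -0.82 ± 0.29 in Tail Gpr161 KO against Tail WT (adjusted p = 0.484).

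Bmp2, a BMP with roles in heart and limb development, had 2.90 and 1.89 CPM in Head DKO, against 11.5 and 11.7 CPM in Head Gpr161 KO. Head Fuz KO held 6.85 and 2.69 CPM and Head WT 3.27 and 2.72 CPM. The 2 Gpr161 KO libraries lay above all other Head libraries. Head DKO against Head Gpr161 KO gave -2.27 ± 0.49 (adjusted p = 0.0213), which was lost without Head Gpr161 KO 1 (0.0837), Head Gpr161 KO 2 (0.0932), Head DKO 1 (0.0982) or Head DKO 2 (0.176). Head Gpr161 KO against Head WT gave 1.95 ± 0.48 (adjusted p = 0.0601). Tail levels were 11.0 and 8.03 CPM in DKO, 16.4 and 6.48 CPM in Gpr161 KO, 14.0 and 8.54 CPM in Fuz KO and 8.59 and 6.77 CPM in WT, and all 4 groups overlap.

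Bmp5 and Bmp7, which encode BMPs of the same subgroup, were also lower in Head DKO than in Head Gpr161 KO. Bmp7 had 30.9 and 32.1 CPM in Head DKO and 32.9 and 35.8 CPM in Head Fuz KO, against 58.9 and 52.8 CPM in Head Gpr161 KO and 57.7 and 49.4 CPM in Head WT. As for Tgfb2, the 4 libraries without Fuz lay below the 4 with it. The same held in the Head for Bmp5, Tgfb3, Bmpr2 and Grem1, and the share of all genes split in this way is not given here. Head DKO against Head Gpr161 KO gave -0.83 ± 0.17 (adjusted p = 0.0176), and 0.0603 with sex as a term. Without Head Gpr161 KO 1, Head Gpr161 KO 2, Head DKO 1 or Head DKO 2 the adjusted p was 0.134, 0.0693, 0.137 and 0.111. Against Head WT, Bmp7 gave -0.77 ± 0.17 in the DKO (adjusted p = 0.436) and -0.64 ± 0.17 in the Fuz KO (adjusted p = 0.6). Tail levels followed another order, with 31.9 and 37.9 CPM in DKO and 24.7 and 31.5 CPM in Gpr161 KO, against 49.0 and 48.3 CPM in Fuz KO and 56.6 and 39.9 CPM in WT. There the 2 genotypes without Gpr161 lay below the 2 with it, at -0.47 ± 0.17 in the DKO (adjusted p = 0.596) and -0.78 ± 0.17 in the Gpr161 KO (adjusted p = 0.11) against WT.

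Bmp5 had 4.76 and 4.50 CPM in Head DKO, against 14.5 and 7.38 CPM in Head Gpr161 KO, where library 1 was 1.97 times as high as library 2. Head Fuz KO held 2.91 and 4.57 CPM and Head WT 7.09 and 5.44 CPM. The DKO difference from Gpr161 KO was -1.24 ± 0.32 (adjusted p = 0.0472), near the threshold. It was -0.67 (adjusted p = 0.428) without Head Gpr161 KO 1, and the adjusted p was between 0.061 and 0.226 without Head DKO 1, Head DKO 2 or any WT, Tail Gpr161 KO or Tail DKO library. The Tail held 19.7 and 24.6 CPM in DKO and 21.4 and 20.9 CPM in Gpr161 KO, against 8.54 and 11.7 CPM in Fuz KO and 14.7 and 11.4 CPM in WT. Both genotypes without Gpr161 lay above both with it, at 0.76 ± 0.31 (adjusted p = 0.636) and 0.70 ± 0.31 (adjusted p = 0.699) against WT. Tgfbr3 and Smad6 were split likewise in the Tail, and Grem1 in the direction of Bmp7. The share of all genes split by Gpr161 in the Tail is not given here.

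Gdf10, which encodes a divergent ligand also called BMP3B, was the only member called lower in Gpr161 KO than in WT in both regions. It had 1.13 and 1.91 CPM in Head Gpr161 KO, against 5.81 and 5.44 CPM in Head WT. Head DKO held 3.75 and 4.76 CPM and Head Fuz KO 3.89 and 7.61 CPM, so the Gpr161 KO lay below all other Head libraries. Tail Gpr161 KO held 1.94 and 2.40 CPM, against 12.6 and 11.6 CPM in Tail WT, with 8.57 and 4.90 CPM in Tail DKO and 6.89 and 10.4 CPM in Tail Fuz KO. Gpr161 KO against WT gave -1.88 ± 0.39 in the Head (adjusted p = 0.0274) and -2.47 ± 0.39 in the Tail (adjusted p = 0.0194). With sex as a term these had adjusted p-values of 0.11 and 0.0978. The Head call was lost without Head WT 1 (0.174) or 2 (0.148), Head Gpr161 KO 1 (0.274) or Head Gpr161 KO 2 (0.0642). The Tail call was lost without Tail WT 1 (0.0828), Tail WT 2 (0.0803), Tail Gpr161 KO 1 (0.343) or Tail Gpr161 KO 2 (0.154). DKO against Gpr161 KO gave 1.48 ± 0.39 in the Head (adjusted p = 0.0517) and 1.63 ± 0.38 in the Tail (adjusted p = 0.0868), and Tail DKO against Tail WT gave -0.84 ± 0.37 (adjusted p = 0.67).

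**Figure D3:**
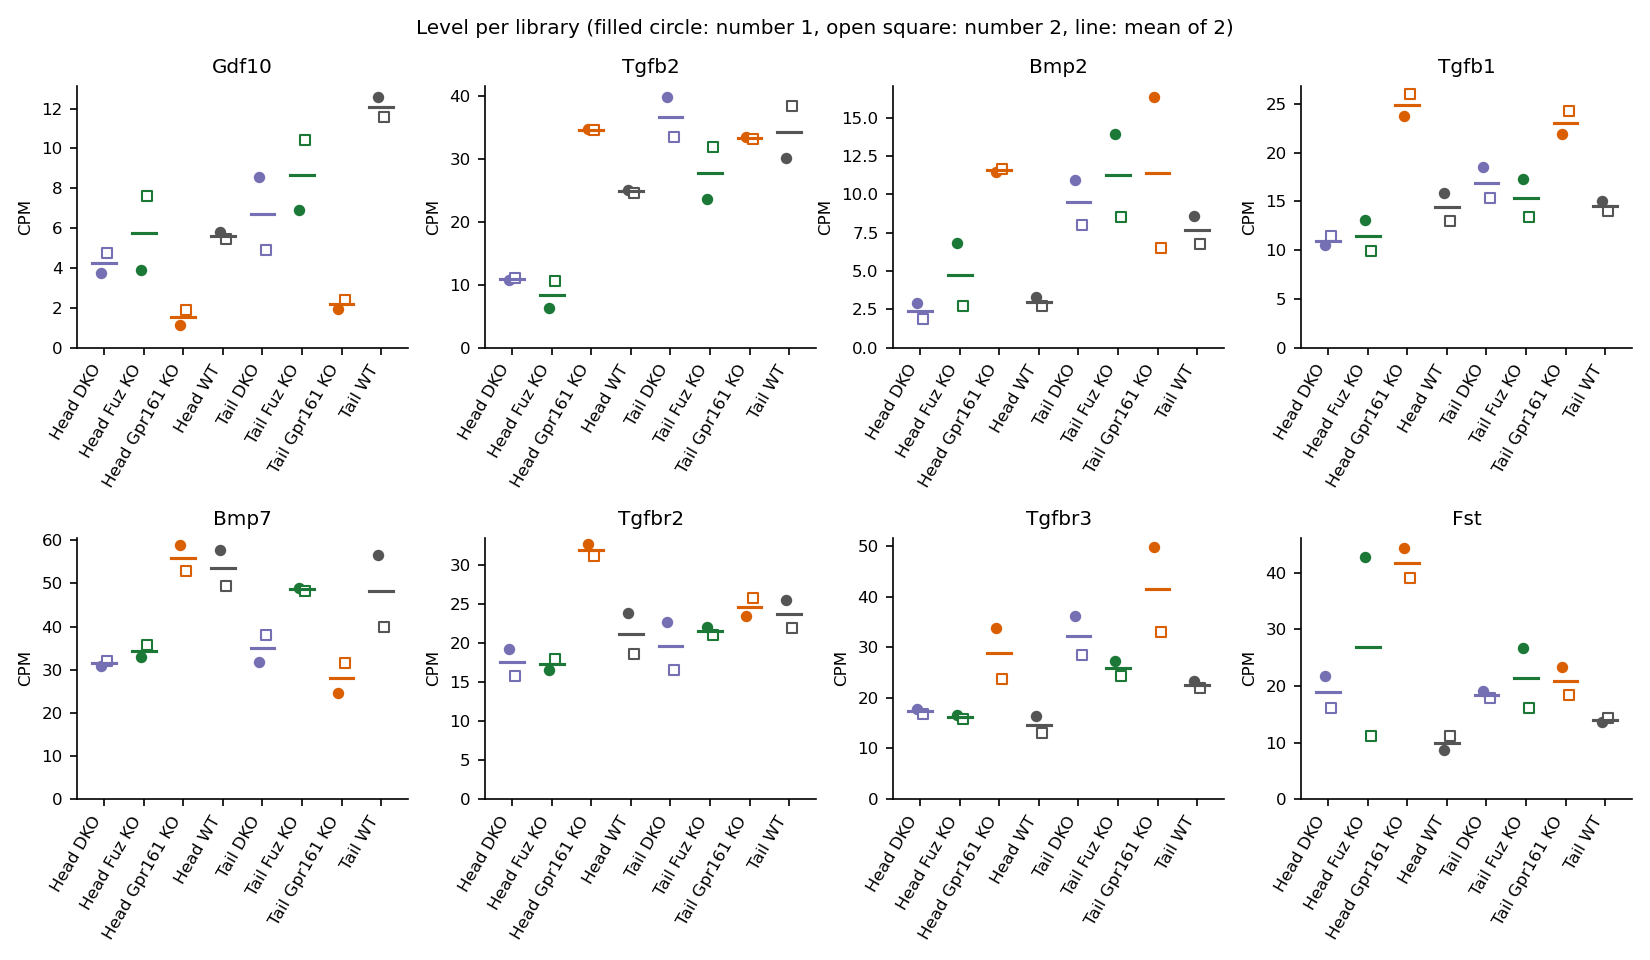
CPM of 8 pathway genes in every library, with filled circles for library 1, open squares for library 2 and a line at their mean, by region and genotype. Tgfb2 and Bmp7 lie low in Head DKO and Head Fuz KO, Bmp2, Tgfb1 and Tgfbr2 lie high in Head Gpr161 KO, and Gdf10 lies low in Gpr161 KO of both regions.

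The remaining ligands did not pass in any comparison of mutants in the edgeR fit of all 16 libraries. Bmp4, the BMP of surface ectoderm and roof plate, had 25.2 and 19.7 CPM in Head DKO, 29.1 and 30.3 CPM in Head Gpr161 KO and 36.8 and 15.8 CPM in Head Fuz KO, against 23.3 and 21.9 CPM in Head WT. The Head Fuz KO libraries spanned all other Head values. Gdf6, a BMP-like ligand of skeletal and eye development, had 1.51 and 7.66 CPM in Head Fuz KO, against 11.0 and 11.3 CPM in Head WT (-1.28 ± 0.55, adjusted p = 0.6). Gdf11, a ligand that sets axial identity, gave -0.47 ± 0.20 in Tail DKO against Tail WT (adjusted p = 0.647) and ran from 31.2 to 73.7 CPM over all libraries. Inhba stayed at or below 1.77 CPM. Inhbb had 4 counts in Tail Gpr161 KO, against 88 in Tail WT, a ratio of 0.0471 with an exact 95% counting interval of 0.0126 to 0.125 (adjusted p = 0.157).

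Among receptors, Tgfbr3 (betaglycan), a co-receptor that presents TGF-beta2 to its signalling receptors, was called against WT. It had 33.8 and 23.8 CPM in Head Gpr161 KO, against 16.4 and 13.0 CPM in Head WT, with 17.9 and 16.9 CPM in Head DKO and 16.5 and 15.9 CPM in Head Fuz KO. The Gpr161 KO lay above all other Head libraries, at 0.97 ± 0.22 against WT (adjusted p = 0.0393). The call was lost without Head WT 1 (0.159) or 2 (0.421), Head Gpr161 KO 1 (0.398), Head DKO 1 (0.0609), Head DKO 2 (0.0614), Tail WT 1 (0.0664) or Tail WT 2 (0.0658). With sex as a term the adjusted p was 0.129, and without the haemoglobin and mitochondrial genes it was 0.0538. Tail libraries held 36.1 and 28.5 CPM in DKO and 49.8 and 33.0 CPM in Gpr161 KO, against 27.3 and 24.3 CPM in Fuz KO and 23.3 and 21.9 CPM in WT. The order of genotypes in the Tail was thus Gpr161 KO, DKO, Fuz KO and WT by mean, and DKO and Gpr161 KO overlap. Against Tail WT, Gpr161 KO gave 0.87 ± 0.22 (adjusted p = 0.169) and DKO 0.51 ± 0.22 (adjusted p = 0.647).

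Tgfbr2, the type II receptor for TGF-beta, had 19.2 and 15.8 CPM in Head DKO, against 32.7 and 31.1 CPM in Head Gpr161 KO. Head Fuz KO held 16.5 and 18.0 CPM and Head WT 23.8 and 18.6 CPM, so the Head Gpr161 KO was above the rest. Head DKO against Head Gpr161 KO gave -0.86 ± 0.18 (adjusted p = 0.0192), and 0.06 with sex as a term. Without Head Gpr161 KO 1, Head Gpr161 KO 2, Head DKO 1 or Head DKO 2 the adjusted p was 0.127, 0.103, 0.0754 and 0.182. Head Gpr161 KO against Head WT gave 0.59 ± 0.18 (adjusted p = 0.143). In Tail libraries Tgfbr2 stayed between 16.5 and 25.8 CPM, and the groups overlap.

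The other 7 receptors were not called in any comparison of mutants in the edgeR fit of all 16 libraries. Tgfbr1 ran from 168 to 264 CPM and Bmpr1a from 146 to 217 CPM, each with its lowest value in Head Fuz KO library 1. Bmpr2, the main type II receptor for BMPs, had 50.2 and 83.1 CPM in Head Fuz KO, against 94.7 and 89.8 CPM in Head WT (-0.47 ± 0.19, adjusted p = 0.6). Acvr2b, a type II activin receptor, had 53.9 and 45.0 CPM in Tail DKO, against 65.8 and 65.3 CPM in Tail WT (-0.41 ± 0.14, adjusted p = 0.524). Bmpr1b gave -0.48 ± 0.22 in Tail Fuz KO against Tail WT (adjusted p = 0.816). Acvr1 ran from 18.8 to 28.6 CPM and Acvr2a from 45.5 to 67.6 CPM. Acvr2a overlaps Orc4 on the other strand, and Chrd overlaps Thpo likewise. The library kit named in the labels does not mark strand, so their reads cannot be told apart.

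Smad9, a receptor-regulated Smad of the BMP branch, had 7.49 and 8.26 CPM in Head Gpr161 KO, against 3.81 and 2.82 CPM in Head WT. Head DKO held 4.85 and 3.17 CPM and Head Fuz KO 3.66 and 1.38 CPM. Tail Gpr161 KO held 11.7 and 12.9 CPM, against 5.65 and 6.79 CPM in Tail WT. In each region the Gpr161 KO lay above every other library. Neither difference from WT passed in the edgeR fit of all 16 libraries: 1.25 ± 0.39 in the Head (adjusted p = 0.154) and 0.98 ± 0.39 in the Tail (adjusted p = 0.576).

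In the edgeR fit of all 16 libraries, none of the 4 antagonists was called between genotypes. Fst had an unadjusted p under 0.05 there in 2 comparisons with WT, and Grem1 and Chrd in 1 each. Fst encodes follistatin, which binds activins and some BMPs. It had 44.4 and 39.1 CPM in Head Gpr161 KO, against 8.64 and 11.2 CPM in Head WT, with 21.8 and 16.1 CPM in Head DKO and 42.7 and 11.1 CPM in Head Fuz KO. Gpr161 KO and DKO lay above WT, and the Fuz KO libraries spanned from WT levels to the Gpr161 KO level. Head Gpr161 KO against Head WT gave 2.07 ± 0.48 (adjusted p = 0.0539), and Head Fuz KO 1.44 ± 0.47 (adjusted p = 0.6). Each passed under some of the other settings and not under most. Grem1, a gremlin BMP antagonist, had 11.3 and 14.8 CPM in Tail Gpr161 KO, against 23.0 and 19.4 CPM in Tail WT (-0.71 ± 0.29, adjusted p = 0.602). Nog, which encodes the BMP antagonist noggin, had 17.2 and 5.30 CPM in Head Fuz KO, against 7.24 and 7.91 CPM in Head WT, which lie between them. Chrd, which encodes chordin, ran from 1.59 to 4.07 CPM and gave -0.75 ± 0.33 in Tail DKO against Tail WT (adjusted p = 0.668).

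The targets also held no call between genotypes in the edgeR fit of all 16 libraries. Smad6 and Bambi had an unadjusted p under 0.05 there in 2 comparisons with WT each. Smad6, an inhibitory Smad induced by BMP, had 43.6 and 41.8 CPM in Head Gpr161 KO, against 28.3 and 25.5 CPM in Head WT (0.67 ± 0.19, adjusted p = 0.0977). This difference passed under some of the other settings and not under most. Tail Gpr161 KO held 61.2 and 56.4 CPM, against 48.5 and 40.1 CPM in Tail WT (0.41 ± 0.18, adjusted p = 0.706). The Gpr161 KO libraries lay above WT in both regions. Bambi, a pseudoreceptor that blocks BMP and TGF-beta receptors, had 78.6 and 88.8 CPM in Tail DKO and 70.2 and 69.0 CPM in Tail Gpr161 KO, against 55.5 and 45.9 CPM in Tail WT. The DKO gave 0.72 ± 0.16 (adjusted p = 0.28) and the Gpr161 KO 0.46 ± 0.16 (adjusted p = 0.482). Id4, an Id gene of neural progenitors, had 48.8 and 41.9 CPM in Head DKO, 23.4 and 35.1 CPM in Head Gpr161 KO and 13.3 and 60.6 CPM in Head Fuz KO, against 81.1 and 75.7 CPM in Head WT. All 6 mutant Head libraries lay below both WT libraries, but the spread of Id4 was wide and no difference passed. Id1 had 119 and 98.3 CPM in Head DKO, against 74.6 and 70.9 CPM in Head WT. Id2 ran from 111 to 194 CPM, Id3 from 144 to 231 CPM and Smad7, the inhibitory Smad of both branches, from 16.6 to 48.3 CPM, each with its highest value in a Fuz KO library 1.

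In Head Gpr161 KO, where 14 of the 20 cardiomyocyte genes were called higher than in Head WT, the endothelial list of 12 genes also summed to 727 and 595 CPM, against 398 and 376 CPM in Head WT. In Head DKO against Head Gpr161 KO, 15 of the 20 cardiomyocyte genes and 5 of the 12 endothelial genes were called lower. Myh6, a cardiac myosin gene, stood at 326 and 55.9 CPM in the Head Gpr161 KO libraries. Library 1 of Head Gpr161 KO had 4.73 times the cardiomyocyte sum of library 2. Between the same libraries Bmp5 was 1.97 times and Tgfbr3 1.42 times as high, and Fst, Bmp7, Tgfbr2, Tgfb2, Bmp2 and Tgfb1 ran from 1.14 times for Fst to 0.9145 times for Tgfb1. Gdf10, called lower there than in Head WT, was 0.594 times as high in library 1 as in library 2. A list of 12 erythroid genes summed to 2684 and 6599 CPM in Head DKO, against 7611 and 10477 CPM in Head Gpr161 KO, a median log2 difference of -1.05 with 0 of 12 called. The hypoxia and glycolysis list had a median of 0.48 in that comparison. The part of heart, vessel or blood tissue, or of the hypoxia genes, in the members' levels in these libraries was not tested. More cells of a type and more RNA per cell cannot be told apart in bulk tissue.

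Non-additivity, how far the DKO log2 effect lies from both single-mutant effects added together, was called by edgeR for 0 members in the Head and 0 in the Tail. Over all genes, 0.164% were called in the Head and 0.0423% in the Tail. An unadjusted p under 0.05 was held by 9 members in the Head, beside 8.02% of all genes, and by 3 in the Tail, beside 6.24%. DESeq2 called 2 members in the Head and 1 in the Tail. The largest Head departures were those of Bmp2 at -2.94 ± 0.68 (adjusted p = 0.155) and Fst at -2.58 ± 0.66 (adjusted p = 0.23), both lower in Head DKO than in Head Gpr161 KO. The subtracted Head Fuz KO effect differed between its libraries, with Bmp2 at 6.85 and 2.69 CPM and Fst at 42.7 and 11.1 CPM. Library 2 lay near Head WT for both genes. In the Tail, Gdf10 departed by 2.11 ± 0.53 (adjusted p = 0.44). With Head Fuz KO 2 left out, 5 members were called in the Head.

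Between regions, Head WT against Tail WT gave 1 member higher (Bmp6) and 2 lower (Grem1 and Bambi), where 3.77% of all genes were called, 2.02% higher and 1.74% lower. Head and Tail libraries of a number deviated together within every genotype and were taken as 1 embryo, which the labels do not state. In WT the correlation of these deviations was 0.133, below the 0.302 reached between groups of different genotype, which cannot share an embryo. As all WT libraries were Xist-positive, sex could not test the pairing there. The calls with the embryo as a block rest on this assumed pairing. A fit with the embryo as a block called 13 members, 3 higher and 10 lower, where 9.43% of all genes were called, 5.17% higher and 4.26% lower. Grem1 had 4.49 and 3.80 CPM in Head WT, against 23.0 and 19.4 CPM in Tail WT (-2.36 ± 0.30, adjusted p = 0.000592), and passed under all 23 other settings. Over all genotypes it ran from 1.95 to 4.78 CPM in the 8 Head libraries, against 11.3 to 29.5 CPM in the 8 Tail libraries. Bmp6, a BMP of the same subgroup as Bmp7, had 11.0 and 11.2 CPM in Head WT, against 3.14 and 5.28 CPM in Tail WT (1.40 ± 0.31, adjusted p = 0.0216). Its call was lost without Head WT 1 (0.113), Head WT 2 (0.118) or Tail WT 1 (0.248). Bmp6 overlaps the far more abundant Txndc5 on the other strand, with 4839 and 145732 counts in all, so its value is uncertain. Bambi had 29.1 and 35.6 CPM in Head WT, against 55.5 and 45.9 CPM in Tail WT (-0.65 ± 0.16, adjusted p = 0.0455), a call that held without any Fuz KO library and was lost without each of the others, at 0.0577 to 0.452. The count of members fell to 1 without Head WT 1, Head WT 2 or Tail WT 1, and rose to 6 or 7 without a Fuz KO library.

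With the embryo as a block, the members lower in Head WT also included Bmp4 (-1.19, adjusted p = 2.17e-05), Smad6 (-0.72, adjusted p = 0.000361) and Tgfbr3 (-0.63, adjusted p = 0.0038). Bmp5 (-1.06, adjusted p = 0.00556), Bmp2 (-1.35, adjusted p = 0.0118), Gdf10 (-1.10, adjusted p = 0.0163), Smad9 (-0.91, adjusted p = 0.0328) and Tgfb2 (-0.45, adjusted p = 0.0401) completed them. Bmpr1b, a type I BMP receptor of neural tube and cartilage (0.82, adjusted p = 0.00452), and Id4 (3.11, adjusted p = 0.0204) were higher in Head WT. Without the block these 10 had adjusted p-values from 0.0516 to 0.368. Over all genotypes, 2 members were higher in every Head library than in any Tail library, Bmp6 and Bmpr1b, as were 3.92% of all genes. Another 3 were lower in every Head library, Bmp4, Grem1 and Bambi, as were 2.41% of all genes. Bmpr1b ran from 21.6 to 36.3 CPM in the Head and 8.56 to 15.8 CPM in the Tail, and Bmp4 from 15.8 to 36.8 CPM in the Head and 45.8 to 80.9 CPM in the Tail. In these 5 genes the regional order thus held in DKO, Gpr161 KO, Fuz KO and WT alike.

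**Figure D4:**
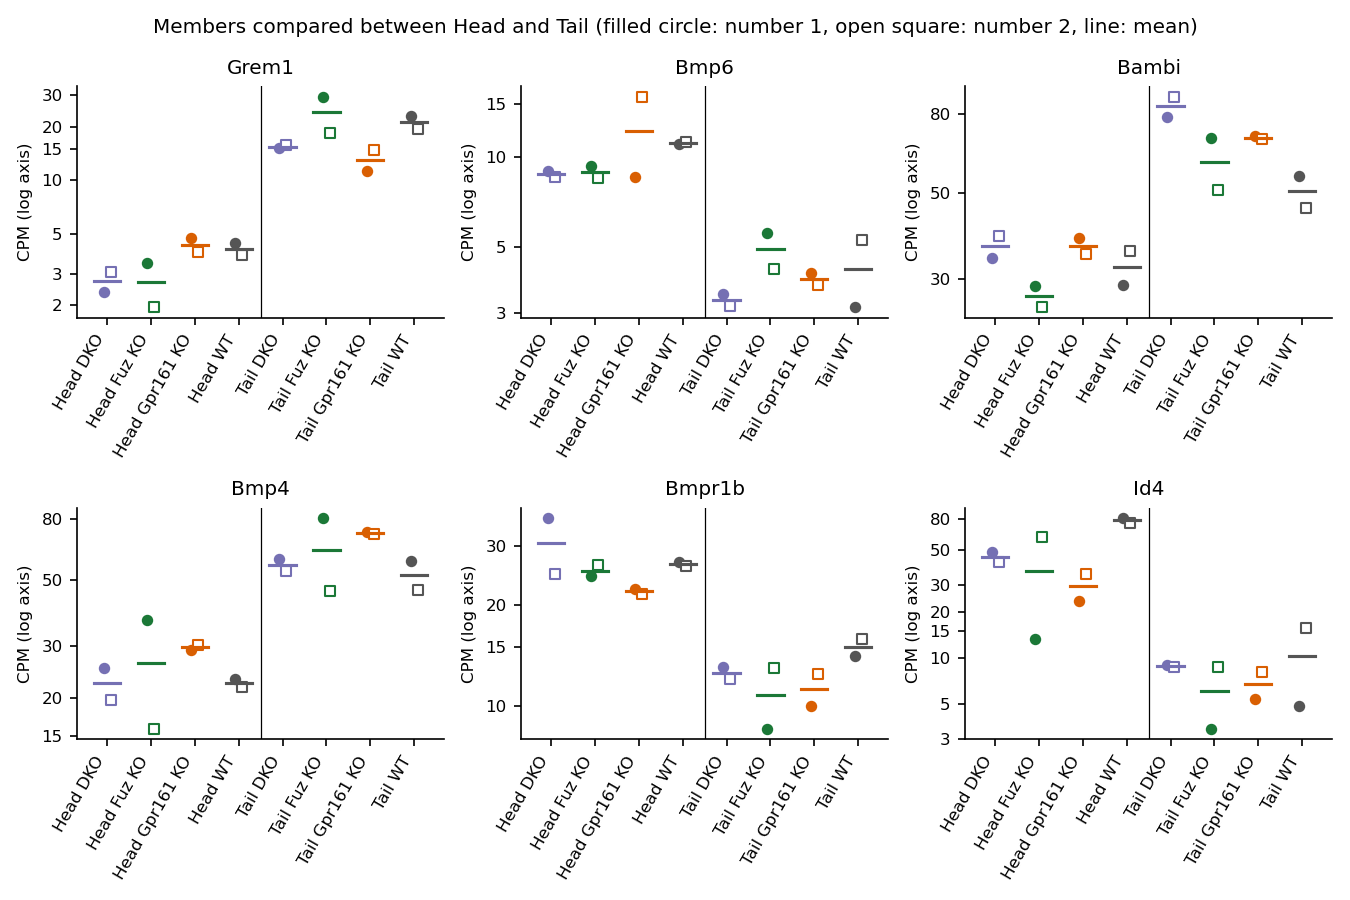
CPM of 6 pathway genes in every library on a log axis, with the 4 Head groups left of the 4 Tail groups, filled circles for library 1, open squares for library 2 and a line at their mean. Grem1, Bambi and Bmp4 are lower, and Bmp6 and Bmpr1b higher, in all 8 Head libraries than in all 8 Tail libraries, while Id4 overlaps through Head Fuz KO 1.

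The effect of a genotype was also compared between regions, as Tail minus Head. By edgeR, 0 members were called for Fuz KO (0% of all genes; 2 members at an unadjusted 0.05, and 0 with DESeq2), with 1 member without Head Fuz KO 2. The count was 0 for Gpr161 KO (0.094% of all genes; 4 members and 1 by DESeq2) and 0 for DKO (0%; 5 members and 0 by DESeq2). Of all genes, 2.12%, 5.26% and 3.25% had an unadjusted p under 0.05 for Fuz KO, Gpr161 KO and DKO. With the embryo as a block, Bmp7 passed for Gpr161 KO at -0.83 ± 0.17 (adjusted p = 0.0401, against 0.348 without the block), where 1.02% of all genes were called and 0.836% were lower. Tgfb2 passed for DKO at 1.29 ± 0.18 (adjusted p = 0.0175, against 1 without the block), where 0.0893% of all genes were called and 0.0235% were higher. Bmp7 in Gpr161 KO was near the WT level in the Head and below it in the Tail, and Tgfb2 in DKO was below the WT level in the Head and near it in the Tail. For Fuz KO, Tgfb2 gave 1.29 ± 0.18 with the block (adjusted p = 0.07), where 0.0047% of all genes were called.

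The members also varied between the 2 libraries of Fuz KO. In Head Fuz KO, 17 of the 34 genes lay over 1.5-fold apart between library 1 and library 2, as did 44.6% of all genes, and in Tail Fuz KO 16 did, as did 37.8% of all genes. The corresponding counts were 6 and 3 in Head and Tail DKO, 5 and 5 in Gpr161 KO and 1 and 5 in WT, where 23.7% to 29.7% of all genes lay as far apart. Nog was 3.25 times higher in library 1 than in library 2 of Head Fuz KO and 3.95 times higher in that of Tail Fuz KO. Smad7 was 2.45 and 1.93 times higher there, Id1 2.12 and 1.61 times, and Bmp4 2.32 and 1.77 times. Id4 ran the other way, at 0.220 and 0.397 times. The same 2 libraries 1 held the higher sums of hypoxia and glycolysis genes, and the part of that difference in the members' levels was not tested.

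**Figure D5:**
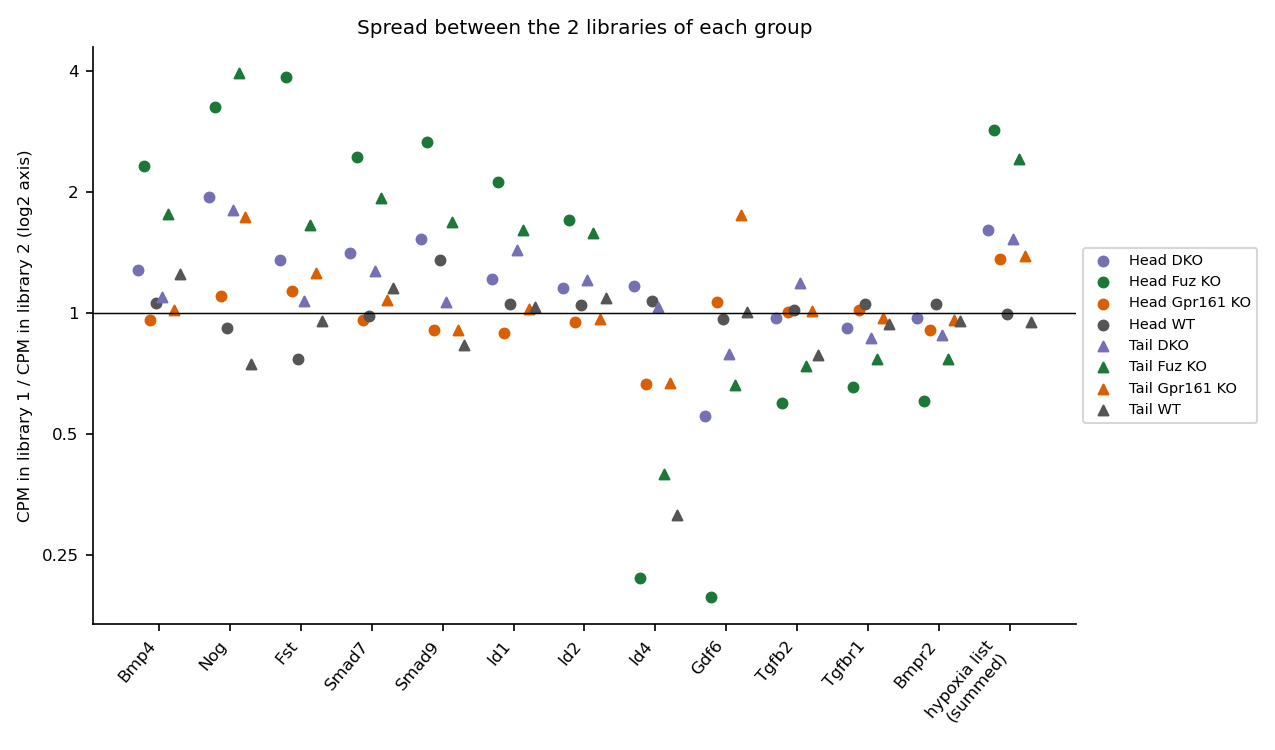
Ratio of the CPM in library 1 to that in library 2 of each group, on a log2 axis, for 12 pathway genes and for the summed hypoxia and glycolysis list, with circles for Head and triangles for Tail. Both Fuz KO groups lie farthest from 1 for Nog, Fst, Smad7 and Id1, and the hypoxia list lies at 2.85 and 2.41 there.

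Of 69 further pathway genes found in the tables, 64 were tested. In Head Gpr161 KO against Head WT, 4 were called higher and 2 lower, beside 1.51% and 0.507% of all genes. Msx1, a homeobox target of BMP, had 33.6 and 46.9 CPM in Head Gpr161 KO, against 155 and 157 CPM in Head WT (-1.96 ± 0.25, adjusted p = 0.00251). Fstl1, a follistatin-like gene, had 458 and 459 CPM, against 290 and 277 CPM (0.70 ± 0.13, adjusted p = 0.0132). Tbx2, a T-box target of BMP, gave -1.64 ± 0.33 (adjusted p = 0.027), and Crim1, which encodes a BMP-binding membrane protein, gave 0.97 ± 0.22 (adjusted p = 0.0394). Msx2, a close relative of Msx1, had 17.4 and 17.6 CPM in Head Gpr161 KO, against 41.5 and 33.8 CPM in Head WT, and did not pass (-1.11 ± 0.28, adjusted p = 0.0713). None of the 7 targets among the 34 genes passed there, with Id4 at -1.42 ± 0.70 (adjusted p = 0.441) and the other 6 between -0.13 and 0.67. In Head DKO against Head Gpr161 KO, 2 of the 64 were higher and 4 lower, beside 1.03% and 3.13% of all genes. Msx1 had 121 and 149 CPM in Head DKO (1.75 ± 0.25, adjusted p = 0.00237) and Tbx2 77.3 and 93.0 CPM (1.69 ± 0.33, adjusted p = 0.0145), against 25.4 and 27.3 CPM for Tbx2 in Head Gpr161 KO. Bmp3 was lower at 0.518 and 0.237 CPM in Head DKO, against 3.99 and 3.03 CPM in Head Gpr161 KO (-3.21 ± 0.55, adjusted p = 0.00607), and Fstl1 was lower by -0.72 ± 0.13 (adjusted p = 0.00705). Msx1 also passed for non-additivity in the Head (2.12 ± 0.35, adjusted p = 0.0347), where 0.164% of all genes were called.

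In Head WT against Tail WT, 4 of the 64 further genes were called, all lower in the Head. Of all genes, 3.77% were called there and 1.74% were lower. Sost, which encodes the antagonist sclerostin, had 2.65 and 2.58 CPM in Head WT, against 12.1 and 8.10 CPM in Tail WT (adjusted p = 0.00331). Cer1, which encodes the BMP and Nodal antagonist cerberus, was at 0 in both Head WT libraries and at 2.30 and 4.41 CPM in Tail WT (adjusted p = 0.00665). Ltbp1, which binds latent TGF-beta, had 30.8 and 34.8 CPM, against 92.9 and 96.8 CPM (adjusted p = 0.00707). Amhr2, the receptor for anti-Müllerian hormone, had 0.0897 and 0.0469 CPM, against 0.838 and 2.17 CPM (adjusted p = 0.0213). The calls among the 64 further genes lay in these 4 comparisons.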

How the data were processed

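Gene expression was measured by RNA sequencing in 16 libraries, 2 in each of 8 groups of region and genotype. Per the labels' protocols, Trizol-extracted RNA went into NEBNext Ultra libraries after poly-A selection. What the authors deposited is a raw count for every Ensembl gene, not normalized. The submitters' processing notes name the build GRCm39 and, among other tools, STAR 2.7.1a, HTSeq and featureCounts 1.6.0, and which tool made the counts is not given in the sources used here. Of 54838 identifiers, 54723 matched a symbol and 115 did not. Exon lengths and overlaps came from GENCODE M21, and promoters from RefSeq.

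Low counts were removed by filterByExpr, leaving 21284 genes. Counts were scaled by TMM and fitted with edgeR 4.0.16 in R 4.3.3 (robust quasi-likelihood F-test) in 1 model of the 16 libraries, each group having its own coefficient. There were 8 residual degrees of freedom, and the common BCV was 0.257. P-values were adjusted by Benjamini-Hochberg across all genes within each comparison, with a call at 0.05, and standard errors (SE) follow from the F values. The 16 comparisons set each mutant against WT and the DKO against each single mutant within a region, non-additivity, Head WT against Tail WT, and each mutant effect in Tail minus Head. The pipeline was checked on simulated counts. Intervals cover counting error only.

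Members in full are those called in at least 1 comparison, members with only an unadjusted p under 0.05 against WT are given as not passed, and of the further pathway genes up to 4 called genes per comparison are named by adjusted p. The members, lists and rules were chosen with earlier results of these data known. Hjv and, in the hypoxia list, Aldoa were not matched to a single identifier.

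To test pairing, the differences between library 1 and library 2 were correlated over genes. They gave r from 0.133 to 0.437 between Head and Tail of each genotype. The lowest, 0.133, was that of WT and lay below the 0.302 reached across genotypes. Library sex was the same in both regions. Only in Gpr161 KO did the 2 libraries differ in sex, so for WT, Fuz KO and DKO this match could not fail. Libraries of 1 number were taken as 1 embryo across regions, though the labels do not state it. Across genotypes r ran from -0.0787 to 0.302 and was over 0.1 in 8 of 24 pairs of groups, all 4 of Fuz KO with DKO and all 4 of Fuz KO with Gpr161 KO, but in 0 of the 12 with WT. The numbers were therefore not taken to pair genotypes. Since r for Fuz KO with DKO reached values as high as within a genotype, r alone does not identify an embryo. Settings tried instead were RLE scaling, no low-count filter, each region fitted alone, the replicate block, DESeq2 1.42.0, sex as a term, removal of the Fuz KO 1 and DKO 1 libraries, removal of haemoglobin and mitochondrial genes, and omission of single libraries, where a library left alone was taken to spread as the other groups do.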

Additional observations from a re-analysis of the deposited data

Results flagged for a closer look

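With the embryo as a block, the Gpr161 KO effect on Bmp7 differed between regions by -0.83 ± 0.17 (log2, Tail minus Head, adjusted p = 0.0401 by edgeR), since Bmp7 lay near WT in the Head and below WT in the Tail. The DKO effect on Tgfb2 differed by 1.29 ± 0.18 (adjusted p = 0.0175), since Tgfb2 lay below WT in the Head and near WT in the Tail. The block took Head and Tail libraries of 1 number as 1 embryo, which the labels do not state. Each result was flagged by a test of the difference between regions itself. Neither passed without the block, at adjusted p-values of 0.348 and 1.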

How the results depend on the processing

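Of the 13 called results, 13 kept their call with no filter on low counts, the replicate block or DESeq2, 12 with RLE scaling, 10 without the Fuz KO 1 and DKO 1 libraries, 10 without haemoglobin and mitochondrial genes, 6 with sex as a term and 6 of 10 with each region fitted alone. Tgfb2 in Head DKO against Head Gpr161 KO and Grem1 in Head WT against Tail WT kept it in all settings run. Groups of 2 libraries limit all counts.

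The number of members called changed as follows. Shares of all genes were given above only for the main fit and, between regions, for the block. A change in the count under another setting may therefore hold for all genes alike. With no filter on low counts it was 5 for Head Fuz KO, 7 for Head Gpr161 KO, 5 for Head DKO, 4 for Tail Gpr161 KO and 1 for Tail DKO against WT. It was then 11 for Head DKO against Gpr161 KO, 1 for Tail DKO against Fuz KO, 2 for Tail DKO against Gpr161 KO, 4 and 3 for non-additivity in Head and Tail, 10 for Head WT against Tail WT, and 1, 2 and 1 for the Fuz KO, Gpr161 KO and DKO effects in Tail minus Head. With DESeq2 it was 7 for Head Gpr161 KO, 2 for Head DKO, 5 for Tail Gpr161 KO and 1 for Tail DKO against WT, 2 for Tail DKO against Gpr161 KO, 2 and 1 for non-additivity in Head and Tail, 8 for Head WT against Tail WT and 1 for the Gpr161 KO effect in Tail minus Head. Without the Fuz KO 1 and DKO 1 libraries it was 9 for Head Gpr161 KO, 1 for Head DKO, 4 for Tail Gpr161 KO and 1 for Tail DKO against WT, 11 for Head DKO against Gpr161 KO, 3 for Tail DKO against Gpr161 KO, 10 for Head WT against Tail WT and 2 for the Gpr161 KO effect in Tail minus Head. With each region fitted alone it was 0 for Head Fuz KO and 0 for Head Gpr161 KO against WT. With sex as a term it was 0 for Head Fuz KO, Head Gpr161 KO and Tail Gpr161 KO against WT, and 5 for Head DKO against Gpr161 KO, where 4 of the 6 calls held and Bmp7 (adjusted p = 0.0603) and Tgfbr2 (0.06) lost theirs. Without haemoglobin and mitochondrial genes it was 1 for Head Gpr161 KO against WT. The causes were not tested.

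With the replicate block it was 6 for Head Gpr161 KO and 3 for Tail Gpr161 KO against WT, 8 and 1 for Head and Tail DKO against Gpr161 KO, 1 for non-additivity in the Head, 13 for Head WT against Tail WT, and 1 each for the Gpr161 KO and DKO effects in Tail minus Head. The other counts were the same with the block. Within a region the labels do not pair the numbers, and the library differences correlated over 0.1 for Fuz KO with DKO and with Gpr161 KO but not for any mutant with WT. Whether a shared factor lies behind the numbers was not tested, and the values with and without the block are both given.

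Leaving out 1 library gave 0 to 8 for Head Fuz KO, 0 to 7 for Head Gpr161 KO, 0 to 1 for Head DKO, 0 to 0 for Tail Fuz KO, 0 to 2 for Tail Gpr161 KO and 0 to 0 for Tail DKO against WT. It gave 0 to 3 and 1 to 8 for Head DKO against Fuz KO and Gpr161 KO, 0 to 0 and 0 to 1 for Tail DKO against them, 0 to 5 and 0 to 0 for non-additivity in Head and Tail, 1 to 7 for Head WT against Tail WT, and 0 to 1, 0 to 0 and 0 to 0 for the Fuz KO, Gpr161 KO and DKO effects in Tail minus Head. Tgfbr3 in Tail DKO against Tail WT, not called, changed sign to -0.037 with sex as a term.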
